A study of Mus musculus with 6 samples.

Results

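Twist1, Twist2, Tcf3, Tcf4 and Tcf12 are 5 of the 21755 protein-coding genes on mouse chromosomes 1 to 19 and X, and they encode the Twist factors and the E proteins that Twist factors pair with. The genes were chosen by name, with earlier results of these data known, and their H3K4me1 peaks were chosen by position. A peak was assigned to a gene when it overlapped the gene body or the 5 kb on either side, or when it lay up to 300 kb away and had the gene's start site as its nearest protein-coding start site. A peak inside another gene could therefore be assigned to a member as well. By this rule the members held 39 of the 16788 peaks of replicate 1, 26 of the 12969 of replicate 2 and 37 of the 13998 of replicate 3. Merged across replicates, these peaks made 45 of 19251 regions.

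The study profiled H3K4me1, the monomethylation of lysine on the tail of histone H3 that is found at active and poised enhancers. It used CUT&Tag, in which a transposase, guided by an antibody, cuts out the DNA around the mark for sequencing. The 6 samples came from wild-type mouse whisker pads of strain B6/J2 at embryonic day 12, and 3 were made with an H3K4me1 antibody and 3 with control IgG. Whole pads were used, so that mesenchyme, surface ectoderm, muscle, vessels and nerves contributed together. In such a sample, fewer cells carrying the mark and less mark per cell cannot be told apart. Peak lists of the IgG samples were not used here, and the values stand without a measured background. The titles give whisker pad for all 6 samples, but the source name of 4 of them, among them H3K4me1 replicates 2 and 3, reads adult kidney. The titles were used for grouping.

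Twist1 and Twist2 are basic helix-loop-helix (bHLH) transcription factors of embryonic mesenchyme. They bind DNA as pairs, with themselves or with an E protein, and the pairs read a short sequence called the E-box. Tcf3, Tcf4 and Tcf12 encode the broadly expressed E proteins, and Id proteins, which lack the DNA-binding part, take E proteins away from their partners. Loss of one copy of TWIST1 or of TCF12 in humans fuses skull sutures early, and Twist1 is needed in mice for the cranial neural crest and the mesenchyme of the face. Tcf3 and Tcf4 must not be confused with the HMG-box factors Tcf7l1 and Tcf7l2, which share their common names and act in Wnt signalling.

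The deposited lists hold the top 1% of signal blocks of each replicate, and each peak carries its total signal, the fragment pileup summed over its bases. The lists summed to 822360552, 985881531 and 744342185 units in replicates 1, 2 and 3, and the weakest peak held 14265, 24247 and 19337 units. The totals were not scaled to depth. Signal was therefore expressed as the percentile of a peak within its own list and as the share of the summed signal of the list. Weaker blocks were not listed, and absence from a list is no proof that a gene was unmarked. The marker lists were chosen with earlier results of these data known, so their counts are no independent evidence. Among marker genes, 10 of 10 facial mesenchyme genes had a body or flank peak in all 3 replicates, beside 15.5% of all protein-coding genes. So did 2 of 8 surface ectoderm genes, 3 of 4 muscle genes, 1 of 4 endothelial genes and 0 of 4 neuron and glia genes. Taken singly, replicates 1, 2 and 3 had such a peak in 5, 5 and 2 of the surface ectoderm genes. The counts were 3, 3 and 3 for muscle, 2, 1 and 1 for endothelium and 1, 1 and 0 for neuron and glia. Of 10 adult kidney markers, only Slc12a1 had a body or flank peak in all 3 replicates. Pax8 and Aqp2 had a body or flank peak in replicates 1 and 2. Thus 3 of the 10 had one in each of these replicates and 1 in replicate 3. The shares of all protein-coding genes were 24.9, 22.6 and 19.6% in replicates 1, 2 and 3. Nphs1, Umod and Lrp2 had 0 peaks in each replicate.

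Of the 5 members, 4 had a peak over the gene body or its 5 kb flanks in each replicate. Among all protein-coding genes the share was 24.9% in replicate 1, 22.6% in replicate 2, 19.6% in replicate 3 and 15.5% in all 3. This share depended on gene length, with 54.2% of the 998 genes of 200 kb or longer and 9.86% of the 16755 genes under 50 kb. Tcf4 (346 kb) and Tcf12 (269 kb) belong to the long genes, and Twist1 (2.16 kb), Twist2 (46.6 kb) and Tcf3 (24.1 kb) to the short ones. Of the 45 member regions, 22 had a peak in all 3 replicates, or 48.9%, beside 46.3% of all regions. The members together held 0.296, 0.264 and 0.410% of the list signal in replicates 1, 2 and 3, on average 0.323 ± 0.0772% (SD, n = 3).

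The sequences printed here are the 300 bases around the highest pileup of the strongest shared region of Twist1, Twist2 and Tcf12, shown as the places where the mark was highest for each gene. A region is called shared when all 3 replicates had a peak in it, and the window was centred on the median of the 3 maxima. Letters are from GRCm38, plus strand, and capitals mark E-boxes, the sequence CANNTG that bHLH pairs read. The windows are chr12:33967479-33967778 for Twist1, chr1:91758979-91759278 for Twist2, both intergenic, and chr9:71893370-71893669 in an intron of Tcf12.
Twist1: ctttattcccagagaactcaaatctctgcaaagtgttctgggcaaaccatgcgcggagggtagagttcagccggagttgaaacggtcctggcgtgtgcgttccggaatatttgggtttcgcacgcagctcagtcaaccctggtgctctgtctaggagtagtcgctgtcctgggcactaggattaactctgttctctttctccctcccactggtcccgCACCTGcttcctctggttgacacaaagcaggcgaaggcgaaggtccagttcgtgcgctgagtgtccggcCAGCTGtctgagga
Twist2: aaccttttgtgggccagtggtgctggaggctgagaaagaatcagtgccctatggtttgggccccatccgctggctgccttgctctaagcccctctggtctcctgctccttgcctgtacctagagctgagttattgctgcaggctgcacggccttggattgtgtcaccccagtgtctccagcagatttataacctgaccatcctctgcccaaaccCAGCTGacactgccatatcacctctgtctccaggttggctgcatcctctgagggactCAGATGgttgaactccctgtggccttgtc
Tcf12: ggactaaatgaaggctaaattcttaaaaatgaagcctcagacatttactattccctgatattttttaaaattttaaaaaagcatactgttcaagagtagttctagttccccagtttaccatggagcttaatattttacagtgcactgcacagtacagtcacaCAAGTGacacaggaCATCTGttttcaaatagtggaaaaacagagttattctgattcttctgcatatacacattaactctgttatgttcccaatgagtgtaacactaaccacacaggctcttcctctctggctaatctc
The Twist1 window held the E-boxes CACCTG and CAGCTG, the Twist2 window CAGCTG and CAGATG, and the Tcf12 window CAAGTG and CATCTG. The GC content of the windows was 55.7% for Twist1, 56.0% for Twist2 and 36.0% for Tcf12.

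Twist1, the Twist factor of early head mesenchyme and neural crest, lies at chr12:33957671-33959829 on the plus strand (ENSMUSG00000035799). It had 5, 3 and 6 peaks in replicates 1, 2 and 3, in 6 regions of which 2 were shared, or 5 when only the 5′ end of each gene was taken as a start site. Its signal was concentrated beside the gene rather than on it. A single region at chr12:33960590-33984822, 24.2 kb long and intergenic, began 2.92 kb and ended 27.2 kb downstream of the start site. It carried 89.8, 87.6 and 67.4% of the signal of the gene in replicates 1, 2 and 3 (81.6 ± 12.3%, n = 3). These percentages depend on the start sites used. With only 5′ ends, the gene's mean share of the list signal rose from 0.0625 to 0.0828%, and the region's part of it was lower. Of all 19251 regions, 64 were as long or longer. Replicate 1 broke the region into 3 peaks, replicate 2 into 2, and replicate 3 had it as 1, and the strongest peak stood at percentile 97.7, 97.7 and 99.8 of its list. The highest pileup was 323, 311 and 250 fragments, and the 3 maxima fell within 61 bp of each other.

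The Twist1 start site itself was not covered in any replicate. The nearest peak lay 1234 bp upstream in replicate 1 and 718 bp upstream in replicate 3, and in replicate 2 it was the long downstream region, 4121 bp away. The upstream region, chr12:33953689-33956953, stood at percentile 18.1 in replicate 1 and 56.4 in replicate 3, and had no peak in replicate 2. Only 1.80% of all protein-coding genes had a 5′ start covered by a peak in all replicates, so an uncovered start was the usual case in these lists.

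The other shared region of Twist1 lay 93.6 kb downstream, at chr12:34048304-34053631, over the 3′ UTR of Hdac9. Hdac9 encodes a class II histone deacetylase, runs towards Twist1 on the minus strand and has its 3′ end 87.8 kb beyond the end of Twist1. This region was weaker than the first and varied more, at percentile 40.3, 62.2 and 85.9 in replicates 1, 2 and 3. It was not shared in the strongest 10000 peaks of each replicate or when overlap of 50% was required, which left Twist1 with 1 shared region. A further 3 regions inside introns of Hdac9, 176 to 210 kb from Twist1, had a peak in replicate 3 only, at percentiles 9.73, 26.6 and 72.3. The body and flanks of Hdac9 held 11, 7 and 17 peaks, so that replicate 3 had the most there as well. Ferd3l, a bHLH gene 28.4 kb on the other side of Twist1, had 0 body or flank peaks in each replicate.

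Twist2, also known as Dermo1 and expressed in dermal mesenchyme, lies at chr1:91801461-91848028 on the plus strand (ENSMUSG00000007805). It had 12, 10 and 10 peaks in replicates 1, 2 and 3. These fell in 12 regions, of which 10 were shared and 2 appeared in replicate 1 only, at percentiles 2.92 and 4.19. Tcf4, which is much longer, had 9 shared regions. The order of these 2 counts depended on the processing. With the start sites of all protein-coding transcripts, chosen after seeing the data, Twist2 had 7 and Tcf4 had 9, and with a reach of 100 kb they had 6 and 8. In the stronger 50% of each list they had 4 and 7, and without replicate 2 they had 10 and 13. The shared regions of Twist2 were spread over both sides of the gene, with centres from -115 kb (upstream) to 164 kb (downstream) of the start site. Those of Twist1 lay downstream only, but the assignment rule left Twist1 less room upstream. Ferd3l lies 28.4 kb away on that side, takes the peaks nearer its own start site and had 1 shared region. Asb1, on the upstream side of Twist2, lies 242 kb away. A difference in marking between the 2 loci cannot be read from the sides of the assigned regions. The shared regions of Twist2 were 2.35 to 11.4 kb long, with a median of 4.29 kb.

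**Figure D1:**
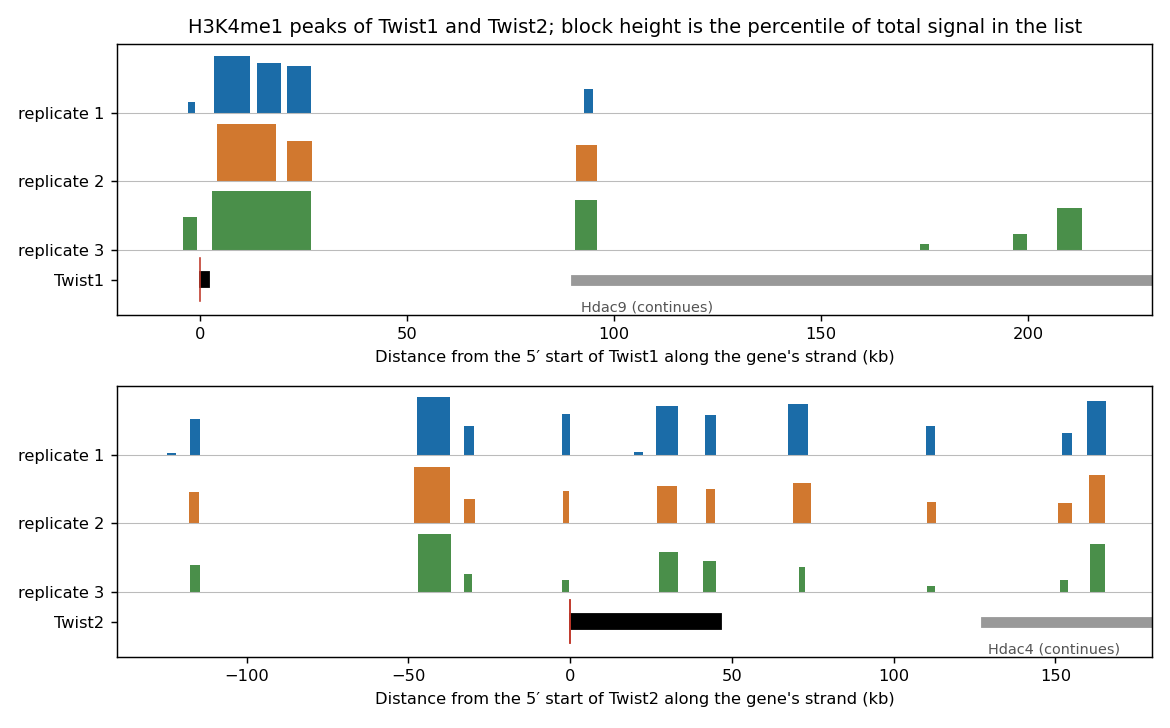
H3K4me1 peaks assigned to Twist1 (top) and Twist2 (bottom) in replicates 1, 2 and 3, by distance from the 5′ start in kb. Block height is the percentile of total signal within the list on a scale from the row's baseline, the black bar is the gene, red ticks are annotated start sites and the grey bar is the next gene, Hdac9 or Hdac4. Twist1 has 2 regions seen in all 3 replicates, the 24.2 kb region beside the gene and another 93.6 kb downstream. A shorter region lies upstream of it in replicates 1 and 3, and 10 shared regions lie around Twist2.

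The strongest Twist2 region, chr1:91753313-91764667, was intergenic, 11.4 kb long and 36.8 to 48.1 kb upstream of the start site. It stood at percentile 98.2, 97.0 and 98.2, with a highest pileup of 302, 292 and 154 fragments at positions within 6 bp of each other. Its share of the list signal was 0.0301, 0.0300 and 0.0311%, the most even of the strongest regions. It held 34.2, 37.7 and 42.2% of the signal of Twist2, well under the share that the first region held for Twist1.

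A shared region of 2.35 kb, chr1:91798936-91801287, ended just before the Twist2 start, leaving 174, 192 and 194 bp uncovered in replicates 1, 2 and 3. It was intergenic with respect to coding genes and overlapped the noncoding gene Gm29100. It stood at percentile 70.2, 54.5 and 19.6 and had a GC content of 54.5%. Its share of the list signal was 0.00529, 0.00494 and 0.00315%, lowest in replicate 3. The RefSeq promoter of Twist2 on GRCm38.p6 is printed here for the 250 bases before the start, chr1:91801211-91801460, to show where the peaks stop.
Twist2 promoter: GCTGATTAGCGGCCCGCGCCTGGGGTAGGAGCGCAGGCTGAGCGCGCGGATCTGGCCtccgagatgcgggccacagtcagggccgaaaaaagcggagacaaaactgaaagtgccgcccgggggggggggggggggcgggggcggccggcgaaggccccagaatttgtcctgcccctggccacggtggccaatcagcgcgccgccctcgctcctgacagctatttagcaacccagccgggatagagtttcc
Capitals mark the 57 bases that lay in the peak of every replicate, and the lower-case bases next to the start lay outside the peak of at least 1 replicate. Over the full RefSeq window, which also takes in the first transcribed bases, the GC content was 64.7% with 25 CG pairs, and the Twist1 promoter, where no replicate had a peak, had 66.0% and 27. Neither window held an E-box.

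Within the intron of Twist2, 2 regions were shared. The one at chr1:91827880-91834921 stood at percentile 82.7, 63.7 and 67.4, and the one at chr1:91842458-91846709 at 68.5, 58.3 and 52.1. The shared region farthest from the start, chr1:91961157-91967194, lay in an intron of Hdac4, another class II histone deacetylase. It was 164 kb downstream, at percentile 91.2, 82.8 and 82.4. Hdac4 itself had 5, 4 and 3 body or flank peaks, and Asb1, 242 kb on the other side of Twist2, had 0 in each replicate.

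Tcf3, the E protein known for its role in lymphocytes, lies at chr10:80409514-80433647 on the minus strand (ENSMUSG00000020167). It was the only member with 0 assigned peaks in all 3 replicates. The nearest peak lay 23.3 kb from the gene in replicate 1 and 23.4 kb in replicate 2, over Mex3d in both. In replicate 3 it lay 141 kb away, over Dazap1. None of the 7 annotated start sites of Tcf3 had a peak within 44821 bp. The flanking genes Uqcr11 and Onecut3 also had 0 body or flank peaks. The RefSeq promoter of Tcf3 had a GC content of 61.7% and 25 CG pairs, close to those of Twist1 and Twist2. The share of all protein-coding genes with 0 assigned peaks in every replicate was not computed. By a looser measure, 80.3% of them had 0 shared regions, which takes in genes with peaks in fewer than 3 replicates.

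Tcf4, the E protein whose loss of one copy in humans causes Pitt-Hopkins syndrome, lies at chr18:69343356-69689079 on the plus strand (ENSMUSG00000053477). It had the largest number of peaks of the members, with 20, 12 and 18 in replicates 1, 2 and 3. They fell in 24 regions, of which 9 were shared, 6 were found in 2 replicates and 9 in 1. Of the last, 3 were in replicate 1, 1 in replicate 2 and 5 in replicate 3. Within the gene and its flanks 8 regions were shared, and 94 of the 998 genes of 200 kb or longer had as many. Peaks covered 22.1, 18.3 and 26.8% of the gene with its flanks, and the median over the long genes was 1.21% as the mean of replicates.

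Some shared regions of Tcf4 covered start sites of the gene. Of 22 annotated start sites, 8 were covered in all 3 replicates, 1 in 2, 2 in 1 and 11 in 0. Peaks covered 22.1, 18.3 and 26.8% of the gene with its flanks, and the share of all annotated start sites covered was not computed. Neighbouring starts fell in the same region, so these counts do not show that the regions follow the start sites. The region chr18:69516004-69524465 covered 5 of the 8, about 178 kb into the gene, at percentile 90.9, 83.2 and 94.3. The strongest region, chr18:69605872-69620941, was 15.1 kb long and covered the start at 69612444, the last one, 269 kb into the gene. It stood at percentile 99.2, 98.5 and 99.6 and its highest pileup was 202, 221 and 140 fragments. The other 2 covered starts lay in the region nearest the 5′ end, chr18:69347324-69354207, at percentile 90.1, 87.0 and 95.8. The 5′ end of the gene was not covered, and the nearest peak began 4.34, 4.25 and 3.97 kb into the gene.

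Not all strong Tcf4 regions held a start site. The region chr18:69654419-69669162, 14.7 kb long and intronic, stood at percentile 97.5, 97.3 and 99.3 with no annotated start. The shared region farthest from the 5′ end, chr18:69732302-69735273, lay beyond the gene, 391 kb from its start, and was weak, at percentile 15.8, 2.27 and 31.4. On either side, Mc2r had 0 body or flank peaks and Ccdc68 had 2 in replicate 1 and 0 in replicates 2 and 3. The marked regions lay mainly inside the gene, with 19 of its 24 regions in the body and flanks.

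Tcf12, the E protein also called HEB, lies at chr9:71842688-72111871 on the minus strand (ENSMUSG00000032228). Although 269 kb long, it had only 2, 1 and 3 peaks in replicates 1, 2 and 3, in 3 regions. The 1 shared region, chr9:71886353-71896699, was intronic, 10.3 kb long and 215 to 226 kb from the 5′ start. It stood at percentile 62.1, 32.5 and 94.2, the widest spread among the strongest regions, although its 3 maxima fell within 43 bp. It was no longer shared when overlap of 50% of both peaks was required. An internal start site of Tcf12 at 71896396 lay inside the peak of replicate 1, and 887 and 377 bp from the nearest peak in replicates 2 and 3. The 4 start sites at the 5′ end had no peak within 200 kb in any replicate.

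The promoters of Tcf12 differed in sequence. The RefSeq promoter at the 5′ start had a GC content of 71.7% and 41 CG pairs, at percentile 92.6 and 96.5 of 32851 promoters. Another near it, chr9:72111152-72111451, had 75.7% and 45 CG pairs, at percentile 96.7 and 98.1. The promoter at the internal start had 36.3% and 0 CG pairs, and only this one touched a peak, in replicate 1. Around Tcf12, Cgnl1 had 3, 2 and 2 body or flank peaks and Zfp280d had 0 in each replicate. No entry for Tcf4 was matched among the promoters.

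**Figure D2:**
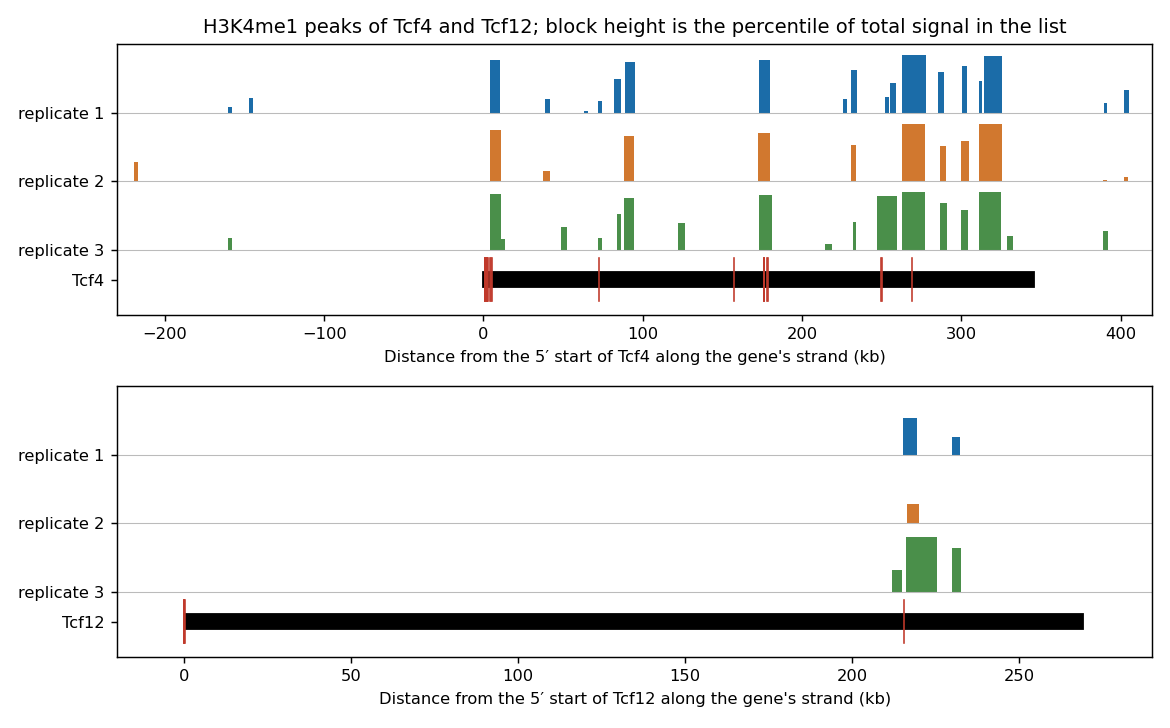
H3K4me1 peaks assigned to Tcf4 (top) and Tcf12 (bottom) in replicates 1, 2 and 3, by distance from the 5′ start along the gene in kb. Block height is the percentile of total signal within the list, the black bar is the gene and red ticks are annotated start sites. Tcf4 is marked along its length, with 9 shared regions, whereas the peaks of Tcf12 lie together more than 200 kb from its 5′ start.

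The order of the members by mean share of signal was Tcf4, Twist2, Twist1, Tcf12 and Tcf3. Tcf4 held 0.152, 0.134 and 0.215% of the list signal in replicates 1, 2 and 3 (0.167 ± 0.0423%, n = 3), above every value of the other members. Twist2 held 0.0881, 0.0797 and 0.0736% (0.0805 ± 0.00729%, n = 3) and Twist1 held 0.0485, 0.0466 and 0.0922% (0.0625 ± 0.0258%, n = 3). Their ranges overlapped, since Twist1 was above Twist2 in replicate 3 and below it in the other replicates. With only the 5′ end of each gene as a start site their order turned, at mean shares of 0.0828% for Twist1 and 0.0805% for Twist2. With a reach of 100 kb the means were 0.0579 and 0.0580%. Tcf12 held 0.00679, 0.00349 and 0.0300% (0.0134 ± 0.0145%, n = 3), under every value of Twist1 and Twist2. Its mean without replicate 3 was 0.00514%, at percentile 82.0 of all protein-coding genes. Tcf3 held 0%. These shares take in peaks up to 300 kb away. From body and flank peaks alone, Twist1 held 0.0295, 0.0339 and 0.0674% and Twist2 held 0.0202, 0.0163 and 0.0145%. By this measure Twist1 was above Twist2 in every replicate. Tcf12, with 0.0300%, was above Twist2 in replicate 3, and Tcf4 was still highest, at 0.143, 0.125 and 0.208%. By mean share of all assigned peaks, Tcf4 stood at percentile 99.7 of all protein-coding genes, Twist2 at 98.7, Twist1 at 98.1 and Tcf12 at 90.4.

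**Figure D3:**
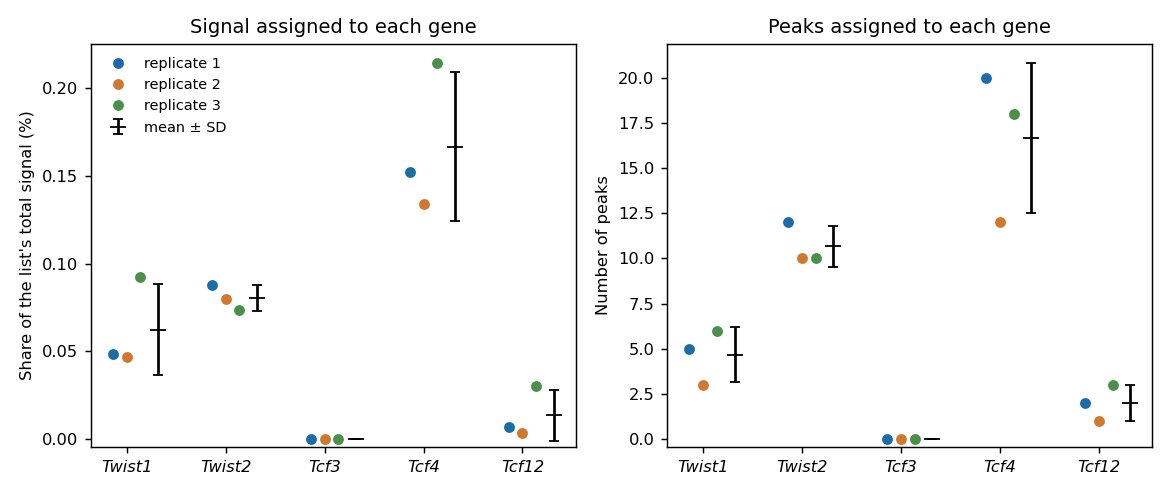
Share of the list's total signal in percent (left) and number of assigned peaks (right) for the 5 genes, with a coloured point per replicate and a black bar for the mean ± SD (n = 3). Tcf4 lies above the other genes in signal in every replicate, Twist1 and Twist2 overlap in signal, and Tcf3 is at 0 in all 3 replicates.

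The number of shared regions was also set against gene length. Over all protein-coding genes the median number was 0, and over those of 200 kb or longer it was 1. Twist2 with 10 and Tcf4 with 9 were above percentile 99 of all genes, at 99.5 and 99.3. These counts take in regions up to 300 kb away, so they also depend on the room around a gene. Within the body and flanks Twist2 had 3 shared regions, at percentile 96.7, and Tcf4 had 8, at percentile 99.5. Among the 998 genes of 200 kb or longer, 94 had 8 or more in the body and flanks. Twist1 with 2 was at percentile 90.9. Tcf12 with 1 was at the median of the long genes, to which it belongs.

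**Figure D4:**
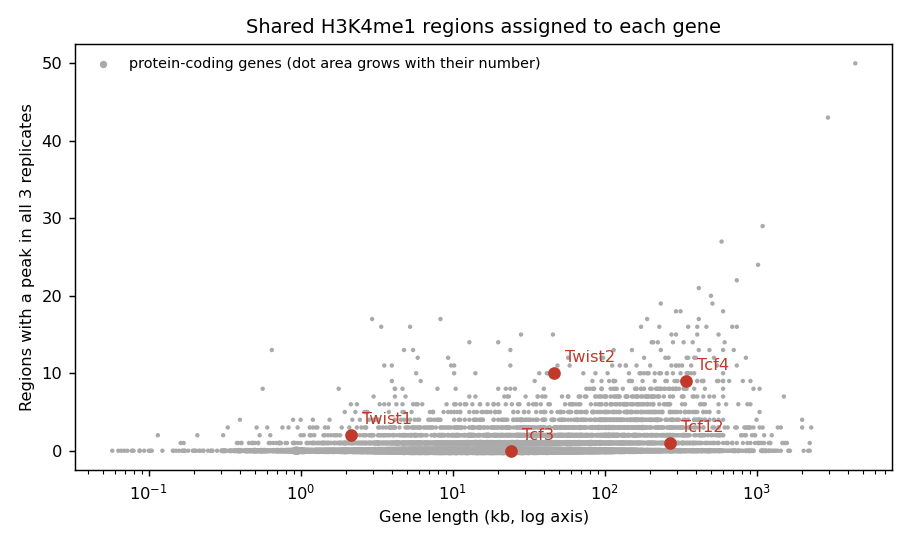
Number of regions with a peak in all 3 replicates (vertical axis) against gene length in kb on a log axis, for all protein-coding genes in grey and the 5 members in red. Twist2 has 10 regions at 46.6 kb, Tcf4 has 9 at 346 kb, and Tcf12 has 1 at 269 kb.

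The difference between replicates 2 and 3 varied with GC content over all shared regions, and the members' regions differ in GC content. In the shared regions of the whole genome with a GC content under 44.7%, the median log2 ratio of the signal share in replicate 3 to that in replicate 2 was 0.71, and in those above 50.2% it was -0.66. The shared regions of Twist2 had a median GC content of 49.1% and a median log2 ratio of -0.14, with 2 of 10 higher in replicate 3. Those of Tcf4 had 43.6% and 0.51, with 7 of 9 higher in replicate 3. Both Twist1 regions were higher in replicate 3, by 0.61 and 0.96, at 41.2 and 39.9% GC. The Tcf12 region had the lowest GC content of the members, 37.3%, and the largest log2 ratio, 2.38. The median GC content of all shared regions was 47.3%. Whether GC content has a part in the higher values of Twist1, Tcf4 and Tcf12 in replicate 3 was not tested.

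The 22 shared regions lay mostly in introns and between genes, with 12 centred in introns, 8 intergenic, 1 over a 5′ UTR of Tcf4 and 1 over the 3′ UTR of Hdac9. In the 300 bases around the maximum, 19 of 22 held an E-box (CANNTG), or 86.4%, beside 81.7% of all shared regions. The form CATCTG, read on the other strand as CAGATG, was in 10 of 22 or 45.5%, beside 27.5%. It was found in 6 of 10 Twist2 windows, 2 of 9 Tcf4 windows, 1 of 2 Twist1 windows and the Tcf12 window. CAGCTG was in 5 windows, or 22.7%, beside 24.0%. CATATG was in 0 of 22, beside 4.79%, and TAATTA, a homeodomain core, in 0 of 22, beside 4.61%. In windows of 1000 bases CATATG was in 1 of 22 or 4.55%, beside 18.2%, and TAATTA was in 7 or 31.8%, beside 19.96%, so that TAATTA lay on the other side of its background. Both strands were searched, and the E-box count includes the other CANNTG forms. These matches describe the letters of the windows, and binding was not measured.

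Genes with a signal share most like each member were found by the distance of log2 shares over the 3 replicates, among 4359 genes with a share above 0 in every replicate. Nearest to Twist1 were Ldb2 (0.0503, 0.0440 and 0.0958%) and Pde7b (0.0476, 0.0431 and 0.0905%). Twist2 was nearest to S1pr3 and Rassf3, Tcf4 to Magi1 and Pdzrn3, and Tcf12 to Rab11fip2 and Tas2r134. With 3 samples of 1 group these are likenesses of level only.

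Of the 4 Id genes, whose products bind E proteins, Id1 and Id3 had a body or flank peak in all 3 replicates, or 50%, beside 9.86% of all genes under 50 kb. Id1 held 0.0251, 0.0290 and 0.0207% of the list signal and Id3 held 0.0293, 0.0345 and 0.0280%. Id2 had one in replicates 1 and 2 and Id4 in replicate 3. Counted with the regions up to 300 kb away, Id1 and Id2 had 3 shared regions each, and Id3 and Id4 had 1 each. The shares of the 4 genes were below those of Twist1 and Twist2 in each replicate.

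Of 10 bHLH genes related to Twist, Scx, a factor of tendon progenitors, was the only one with a body or flank peak in all replicates. This share, 10%, was close to the 9.86% of all genes under 50 kb. Scx held 0.0720, 0.0782 and 0.0315% of the list signal, which overlapped the values of Twist1 and Twist2. Tcf15 had a peak in replicates 1 and 2 and Hand1 in replicate 2. The other 7, among them Hand2, Tcf21 and Msc, had 0. Of 10 muscle and neuron bHLH genes, the muscle factors Myf5, Myf6 and Myog had one in all replicates. This was 30% of the list, beside 9.86% of all genes under 50 kb. In replicate 3 Myf5 and Myf6 each had 1 such peak and the same share of signal, 0.0109%. The same peak can be counted for both, so the 30% does not count separate loci. Neurog2 and Atoh1 had a body or flank peak in replicates 1 and 2. Myod1, Neurog1, Neurod1 and Neurod4 had 0.

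Of 13 genes linked with Twist factors in mesenchyme and skull sutures, 11 had a body or flank peak in all 3 replicates, or 84.6%. The share of all protein-coding genes was 15.5%. This list too was chosen with earlier results of these data known, so its count is no independent evidence. Runx2, the master factor of osteoblasts, held 0.115, 0.0978 and 0.203%, highest in replicate 3 as for Tcf4. Alx4, a homeobox gene of facial and skull mesenchyme, held 0.200, 0.209 and 0.161%. Snai1 had 1 body or flank peak in each replicate, Snai2 had 2, 0 and 1, and Zeb2 had 8, 5 and 6 where its relative Zeb1 had 0. Fgfr2 is counted among the 11, but its annotated body spans 2961 kb and takes in other genes. Runx2 (319 kb) and Cdh2 (220 kb), also among the 11, are long as well. Of all genes of 200 kb or longer, 54.2% had such a peak in all 3 replicates. Prrx1 and Pdgfra are also on the list of facial mesenchyme markers. The HMG-box genes Tcf7, Lef1, Tcf7l1 and Tcf7l2 all had a body or flank peak in each replicate. Tcf7l1 held 0.203, 0.208 and 0.175% and Tcf7l2 held 0.253, 0.253 and 0.242%, which must not be read as values of Tcf3 and Tcf4.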

How the data were processed

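H3K4me1 CUT&Tag peak lists of 3 whisker pads were analysed. The authors called peaks per replicate with SEACR in stringent mode, without IgG, and kept the top 1% of blocks. Both deposited signal columns, total and maximum, held whole numbers in 100% of peaks, unscaled. The submitters' processing notes name Bowtie2 2.3, SAMtools 0.1.19, bedtools, SEACR 1.3 and mm10. Read depth is not in the lists, so precision rests on the spread over 3 replicates, which were separate pads by their titles.

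Genes (21755) and 41135 start sites were those of the GENCODE vM21 basic set. Peaks overlapping by 1 bp or more across replicates were merged into 19251 regions, 8917 of them with a peak in all 3. Motifs used the 8916 on chromosomes 1 to 19 and X. Percentiles run from 0 to 100 within a list. Values are per replicate and as mean ± SD. No test was made, since 1 group was available. The RefSeq promoter table (GRCm38.p6) held 32851 promoters.

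Named were the members, their neighbours, genes holding a member region, the 2 genes most alike in share, and listed genes with a peak in all replicates plus examples. Some listed genes are not reported singly here. Members and lists were chosen with earlier results of these data known. Alternatives covered overlap, flank, reach, start sites, list length, joined peaks, signal measure, motif window and leaving out each replicate. The scripts, in Python 3.11.15 with pandas 2.3.3 and pysam 0.24.0, were tested on simulated peaks.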

Additional observations from a re-analysis of the deposited data

How the results depend on the processing

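Over 28 results of the members and 297 recomputed values, 269 stayed within 1 SD of the replicates or, for counts, within 1.5 times, and 28 moved further. Part of the 269 could not move. The values of Tcf3 were 0 in every setting, and covered shares do not depend on the reach or the start sites. The count of 269 is therefore no measure of stability. The number of regions in all replicates was 22 and fell to 12 when only the stronger 50% of each list was kept, a setting that removes peaks by construction. Leaving out 1 replicate at a time gave 22 to 28 such regions, since fewer lists had to share a region, a signal share of 0.280 to 0.353%, and 4 members with a body or flank peak. That number was 3 with no flank, without Twist1, and 3 with the stronger 50% of each list.

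Single genes moved more. Twist2 had 6 shared regions with a reach of 100 kb. With start sites of all protein-coding transcripts, chosen after seeing the data, its mean number of peaks fell from 10.7 to 7.67 and its share from 0.0805 to 0.0631%. With only the 5′ end of each gene as a start site, Twist1 had 5 shared regions in place of 2. The shared region of Tcf12 was lost when 50% overlap was required or the stronger 50% was kept, and without replicate 2 it had 2. In windows of 1000 bases, CATCTG or CAGATG was in 19 of the 22 regions, or 86.4%, beside 63.3% of all shared regions. No paired analysis was possible because only H3K4me1 lists were used, and the pad numbers are shared with IgG samples alone. A region under the top 1% is not listed, so its level is unknown.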
